A study of Mus musculus with 2 samples.

Results

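The Mir17-92 and Mir106b-25 clusters are paralogous groups of microRNA genes, each processed from a single primary transcript. The rule takes members by gene symbol and uses no level: Mir17, Mir18, Mir19a, Mir20a, Mir19b-1 and Mir92-1 form the Mir17-92 cluster, and Mir106b, Mir93 and Mir25 form the Mir106b-25 cluster. They are 9 of the 2202 microRNA genes counted. The series holds microRNA sequencing of total RNA (labelled size range under 30, without a unit) from the heart of adult female mice aged 8 to 10 months, and its only group has 2 libraries. The strain is labelled 5xFAD/CAST: CAST is an inbred strain derived from wild mice, and 5xFAD is a transgenic Alzheimer disease model whose human transgenes are driven by the neuronal Thy1 promoter. The labels give no genotype beyond that name. Both libraries carry the same donor identifier but different sample identifiers. Whether they come from separate animals is not clear, so the spread between them may be technical, biological or both. There is no control group, so every comparison below is among genes or between these libraries, not between conditions.

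MicroRNAs of these clusters bind messenger RNAs mainly through their seed, bases 2 to 8 counted from the 5′ end, and lower the translation and stability of their targets. Mir17-92 is induced by Myc and E2f factors, is amplified in lymphomas, and is known to target the cell cycle inhibitor Cdkn1a and the pro-apoptotic gene Bcl2l11. In mice its loss causes heart and lung defects at birth, and its overexpression in cardiomyocytes promotes their proliferation. Mir106b-25 lies inside Mcm7, a gene of the replicative helicase, and shares targets with Mir17-92. In the mouse heart miR-25 is known to target Atp2a2, which encodes the calcium pump of the sarcoplasmic reticulum, and miR-92a is known to restrain vessel growth.

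The mature sequences are given because they sort the members into 4 seed groups and show which reads could be placed at a single locus. All 9 members matched a RefSeq mature sequence (build GRCm38.p6). The arm shown is the one the family is named for, and the seed is in capitals.
miR-17-5p (Mir17): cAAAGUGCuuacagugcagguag
miR-20a-5p (Mir20a): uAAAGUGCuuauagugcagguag
miR-106b-5p (Mir106b): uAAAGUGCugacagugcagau
miR-93-5p (Mir93): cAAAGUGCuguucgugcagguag
miR-18a-5p (Mir18): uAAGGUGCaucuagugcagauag
miR-19a-3p (Mir19a): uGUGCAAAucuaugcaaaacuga
miR-19b-3p (Mir19b-1): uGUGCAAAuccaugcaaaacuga
miR-92a-3p (Mir92-1): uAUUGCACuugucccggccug
miR-25-3p (Mir25): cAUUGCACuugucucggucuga
The miR-17 seed thus had 4 members from both clusters, the miR-92 seed 2 members from both clusters, the miR-19 seed 2 members and the miR-18 seed 1 member. Counted from the 5′ end with Mir17 first, Mir20a differed at C1U and C12U, Mir106b at C1U, U10G and G20A, and Mir93 at U10G, A11U, C12U and A13C. With Mir19a first, Mir19b-1 differed at U11C alone. With Mir92-1 first, Mir25 differed at U1C, C14U and C18U over the length of miR-92a-3p.

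For 2 of the 9 members, Mir19b-1 and Mir92-1, the mature sequence also occurred in another of the 1005 RefSeq hairpins, Mir19b-2 and Mir92-2 of the Mir106a-363 cluster on the X chromosome. The hairpins are shown because the run that each pair shares, in capitals, ends exactly at the 3′ end of the mature sequence.
Mir92-1: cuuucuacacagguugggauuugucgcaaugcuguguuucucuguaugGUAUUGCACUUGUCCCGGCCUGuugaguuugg
Mir92-2: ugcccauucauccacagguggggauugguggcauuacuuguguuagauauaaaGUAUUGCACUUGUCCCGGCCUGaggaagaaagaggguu
Mir19b-1: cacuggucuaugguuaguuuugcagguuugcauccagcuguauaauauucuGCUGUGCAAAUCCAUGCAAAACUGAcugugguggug
Mir19b-2: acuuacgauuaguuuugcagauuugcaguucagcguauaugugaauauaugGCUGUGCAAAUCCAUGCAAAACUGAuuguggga
The shared run was 22 bases for the Mir92 pair and 25 bases for the Mir19b pair. A read of the mature sequence alone fits both loci of a pair, and reads at several loci were not assigned to a gene. The counts of Mir92-1 and Mir19b-1 therefore leave out such reads, and counts per gene do not show which arm or which read ends gave the rest. None of the other 7 mature sequences, nor their first 18 bases, occurred in another RefSeq hairpin. In the GENCODE M21 transcripts those 7 occurred only in their own genes, Mir17hg and Mcm7. A genome sequence was not used here.

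By the M21 annotation (build mm10), the 6 Mir17-92 genes lay on the plus strand of chromosome 14 from 115043671 to 115044506, a span of 836 bp. Each overlapped the annotated exon of Mir17hg, the noncoding host transcript. The order along the transcript was Mir17, Mir18, Mir19a, Mir20a, Mir19b-1 and Mir92-1, with 35 to 96 bp between neighbouring hairpins. The 3 Mir106b-25 genes lay on the minus strand of chromosome 5 from 138165321 to 138165818, a span of 498 bp, in the order Mir106b, Mir93 and Mir25. All 3 lay in intron 13 of the Mcm7 transcript Mcm7-201, and Mir93 and Mir25 also overlapped an exon of 1 of the 10 annotated Mcm7 transcripts.

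MicroRNA genes received 4186560 reads in replicate 1 and 2877511 in replicate 2, and levels are given as CPM, counts per 1000000 of these reads. A count of 0 allows a level of up to 0.717 CPM in replicate 1 and 1.04 CPM in replicate 2, taken as 3 counts. Intervals and these limits cover counting error only, because the reads carry no molecular identifiers. Counts are per gene, so the arms of a hairpin were not separated. All 7 listed cardiomyocyte microRNAs reached 1 CPM in both libraries, with summed levels of 6544 and 4789 CPM. Most of these sums came from Mir499 (20039 and 10412 counts) and Mir208a (6857 and 3091 counts in replicates 1 and 2). The lowest, Mir133a-1, had 6 and 3 counts in replicates 1 and 2. The sums hold only reads placed at a single locus, so a low count here does not show that a microRNA was scarce. All listed endothelial, smooth muscle, erythroid and leukocyte genes also reached 1 CPM in both libraries. Reaching 1 CPM therefore cannot serve as a check of the tissue label. In bulk tissue, fewer cells of a type and less RNA per cell cannot be told apart.

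The clusters together held 26064 counts in replicate 1, or 0.623% of all microRNA gene counts (exact Clopper-Pearson 95% interval 0.615 to 0.630). In replicate 2 they held 20528 counts, or 0.713% (0.704 to 0.723). The mean was 0.668% ± 0.0642 (SD, n = 2). Reads that fit several loci are missing from the Mir17-92 sum. Among counted reads the clusters had similar sums, with 0.324% ± 0.0438 for Mir17-92 and 0.344% ± 0.0205 for Mir106b-25 (SD, n = 2). The summed counts of Mir17-92 over those of Mir106b-25 gave 0.890 for replicate 1, with an exact 95% interval from 0.869 to 0.912. For replicate 2 they gave 0.991, with an interval from 0.964 to 1.02. These intervals do not overlap, so the ratio moved between the libraries by more than counting error. Mir92-1 supplied much of the Mir17-92 sum: without Mir92-1 and Mir19b-1 the mean ratio was 0.520.

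Of the 9 members, 7 reached 1 CPM in both libraries, as did 380 of all 2202 genes. Among reads placed at a single locus, Mir93 had the highest level of the members, with 2424 and 3187 CPM in replicates 1 and 2, a mean of 2806 ± 539 CPM (SD, n = 2). It ranked 37 by mean level among all genes. Mir92-1 followed with 1507 and 1377 CPM, a mean of 1442 ± 91.9 CPM (SD, n = 2) and rank 52. The ranges of Mir93 and Mir92-1 did not overlap, and Mir92-1 stayed above Mir17 in both libraries.

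Mir17, the first hairpin of its transcript, had 764 and 1202 CPM, a mean of 983 ± 310 CPM (SD, n = 2). Mir20a had 629 and 924 CPM, a mean of 777 ± 209 CPM (SD, n = 2). Mir17 was higher than Mir20a in each library, although the ranges of these neighbours over the libraries overlapped. Mir106b had 435 and 234 CPM, a mean of 334 ± 142 CPM (SD, n = 2), and Mir25 had 434 and 162 CPM, a mean of 298 ± 193 CPM (SD, n = 2). The ranges of Mir106b and Mir25 overlapped as well, and in replicate 1 their counts were almost the same, 1821 for Mir106b and 1817 for Mir25. Mir18 was far below the rest of the detected members, with 31.3 and 47.6 CPM, a mean of 39.5 ± 11.5 CPM (SD, n = 2) and rank 180. The order from Mir93 down to Mir18 was the same in both libraries.

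**Figure D1:**
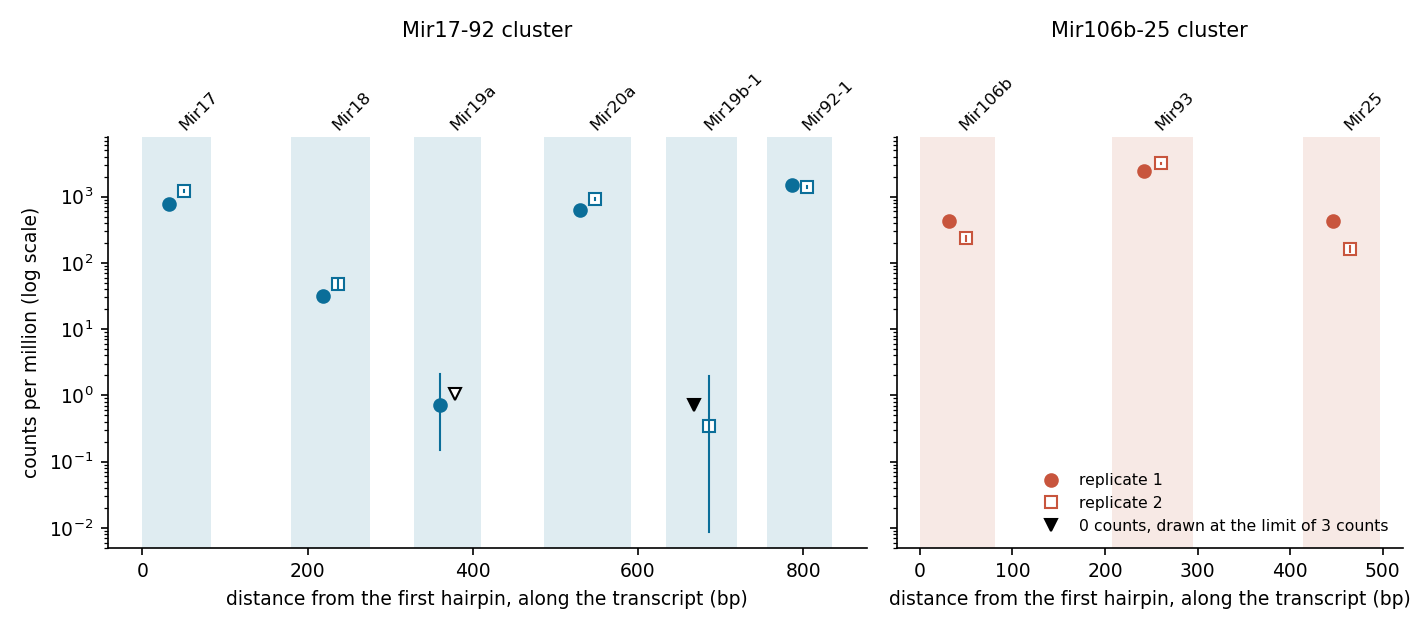
Level of each member (CPM, log scale) against its distance in bp along the transcript from the first hairpin, with exact 95% counting intervals; circles are replicate 1, squares are replicate 2, and triangles are counts of 0 drawn at the limit of 3 counts. Mir19a and Mir19b-1 stand at or under about 1 CPM between neighbours at 31.3 to 1507 CPM, and Mir93 stands above Mir106b and Mir25.

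The miR-19 genes were almost without counts. Mir19a had 3 counts in replicate 1 (0.717 CPM, exact 95% interval 0.148 to 2.09) and 0 in replicate 2. Mir19b-1 had 0 counts in replicate 1 and 1 in replicate 2 (0.348 CPM, 0.00880 to 1.94). Mir19a lies between Mir18 and Mir20a on the same exon. In replicate 2, Mir20a was at least 887-fold higher and Mir18 at least 45.7-fold higher than Mir19a, taking its 0 as 3 counts. In replicate 1 the count ratio of Mir20a to Mir19a was 878 (exact 95% interval 300.2 to 4262).

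Shared sequence bears differently on these genes. For Mir19b-1 the whole mature sequence is present at Mir19b-2, and Mir19b-2 had 0 counts in both libraries, and a read of mature miR-19b alone could be counted at neither locus. The mature sequence of Mir19a had no copy in another RefSeq hairpin, and its hairpin shared at most 13 bases with any other. Of the mature sequences of the 9 members, miR-19a-3p had the lowest share of G and C, 34.8%, beside 39.1% to 57.1% in the others and a median of 52.2% over 1674 RefSeq mature sequences. Outside these clusters, miR-32-5p had a lower share, 31.8%, and Mir32 had 89 and 104 counts in replicates 1 and 2. For miR-367-3p the share was 36.4%, and Mir367 had 0 counts in both. The part of base composition in the low count of Mir19a was not tested. The abundance of miR-19 in this tissue cannot be read from these counts.

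Summed by seed over reads placed at a single locus, the miR-17 group was highest. Reads that fit both Mir92-1 and Mir92-2 are missing from the miR-92 group, so the order of these groups holds for the counted reads only. Its 4 genes had 4252 CPM in replicate 1 and 5547 CPM in replicate 2, a mean of 4900 ± 916 CPM (SD, n = 2). Mir93 alone made up 57.0% of the group (56.3 to 57.7, exact 95% interval) in the first library and 57.5% (56.7 to 58.2) in the second. Its share did not differ beyond counting error, while those of its partners did. Mir17 made up 17.96% and 21.7%, Mir20a 14.8% and 16.7%, and Mir106b 10.2% and 4.22% in replicates 1 and 2. The intervals of these 3 genes did not overlap between the libraries.

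The miR-92 group had 1941 CPM in replicate 1 and 1539 CPM in replicate 2, a mean of 1740 ± 285 CPM (SD, n = 2). Mir92-1 held 77.6% of its counts (76.7 to 78.5, exact 95% interval) in the first library and 89.5% (88.6 to 90.4) in the second, and Mir25 the rest. These shares are of counted reads, and those of Mir92-1 may be of either arm. The miR-18 group was Mir18 alone. The miR-19 group had 0.717 and 0.348 CPM in replicates 1 and 2.

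**Figure D2:**
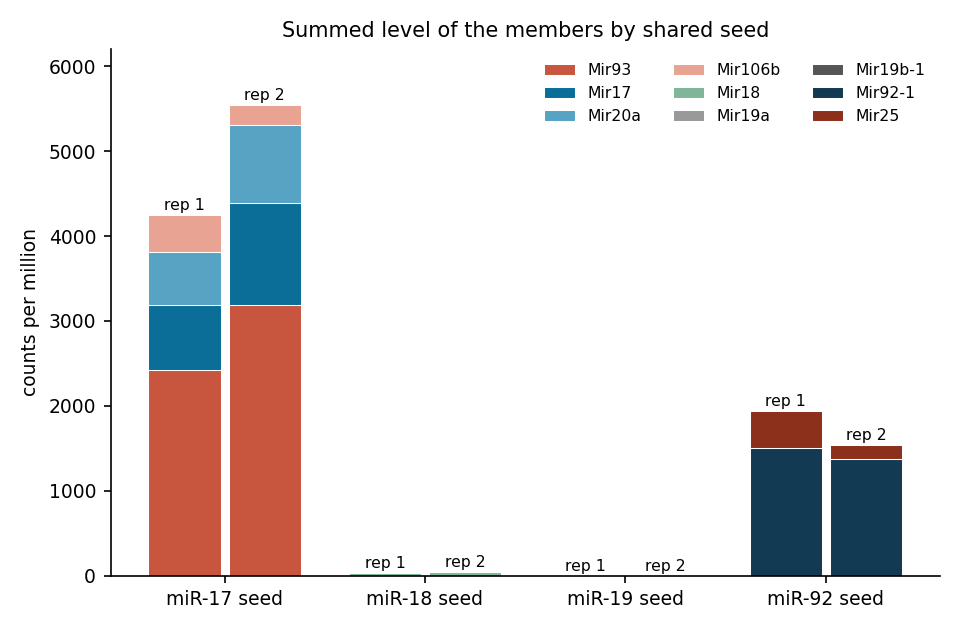
Summed level of the 9 members (CPM) by shared seed in each library, with the members stacked. The miR-17 seed reaches 4252 CPM in replicate 1 and 5547 CPM in replicate 2, mostly Mir93, while the miR-18 and miR-19 seeds are barely visible at this scale.

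Among reads placed at a single locus, relatives of the members added few counts. Reads of mature miR-92a or miR-19b alone are missing from the sums of both clusters that carry them, so the sums below cover counted reads only. The Mir106a-363 cluster, the third paralogous cluster, lies on the X chromosome and pairs most of its genes with a member by sequence. Its 6 genes summed to 104 and 101 CPM in replicates 1 and 2, a mean of 103 ± 2.55 CPM, against 3242 ± 438 CPM for Mir17-92 and 3438 ± 205 CPM for Mir106b-25 (SD, n = 2). Mir92-2 supplied 85.8% and 82.8% of that sum in replicates 1 and 2. Mir106a had 25 and 16 counts, Mir20b 19 and 28, Mir363 16 and 6, Mir18b 2 and 0, and Mir19b-2 0 and 0.

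In the miR-17 group, Mir106a and Mir20b added 44 counts to each library's 17803 and 15962. miR-106a-5p differs from miR-17-5p at U10A alone, yet Mir17 had 3198 and 3458 counts where Mir106a had 25 and 16. Of the other genes with the miR-92 seed, Mir32, in an intron of Tmem245, had 21.3 and 36.1 CPM, and Mir367 had 0 counts in both libraries. Its neighbours in the Mir302 cluster of pluripotent cells, which carry none of the 4 seeds and were looked at after the values were seen, had more counts in replicate 2: Mir302a had 10 and 482 counts, Mir302b 6 and 394, Mir302c 2 and 77, and Mir302d 24 and 270 in replicates 1 and 2. A search of the RefSeq mature sequences for the 4 seeds found only 2 further genes, which were not on the list of relatives: Mir92b, with 50.2 and 73.3 CPM, and Mir6383, with 0 counts in both. Mir92-1 and Mir92-2 carry the same mature sequence, and reads of that sequence alone are counted at neither gene. Among the remaining reads, the count of Mir92-1 was 16.8 times that of Mir92-2 (15.2 to 18.7, exact 95% interval) in the first library. In the second it was 16.5 times (14.5 to 18.9), and the intervals overlap. These ratios do not show how much mature miR-92a each gene gave.

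Of the 7 members that passed the filter on low counts, 6 differed by more than counting error between the libraries: relative to the scaled totals, 4 stood higher in replicate 2 and 2 lower. Each gene was tested with a two-sided exact binomial test on TMM-scaled totals, with Benjamini-Hochberg adjustment over the 309 genes tested and a threshold of 0.05. Over all tested genes, 63.4% were called, 35.3% higher and 28.2% lower in replicate 2. Most genes thus differed by more than counting error, and the members' count is read beside that share. The test calls smaller differences at higher counts, and all tested members but Mir18 stood within the first 92 ranks by mean level. The share called among genes of like level was not computed, so no excess is read from the members' count. The test compares these libraries only. Mir19a and Mir19b-1 did not pass the filter.

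Mir25 differed most, with a log2 ratio of -1.35 (replicate 2 over replicate 1, exact 95% interval -1.50 to -1.21, adjusted p = 1.69e-84 by the exact binomial test). Mir106b, from the same Mcm7 intron, was also lower in replicate 2, with a log2 ratio of -0.82 (-0.95 to -0.70). Mir93, which lies between them, was higher, with a log2 ratio of 0.47 (0.43 to 0.51). Direction therefore differed within this cluster, where all 3 hairpins share a transcript.

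In the Mir17-92 cluster the log2 ratios were 0.73 for Mir17, 0.68 for Mir18 and 0.63 for Mir20a, all higher in replicate 2. The least certain of these, Mir18, had an exact interval of 0.32 to 1.03 and an adjusted p of 0.000268 by the exact binomial test. Mir92-1 had a log2 ratio of -0.06 (exact interval -0.12 to -0.00088, adjusted p = 0.0700 by the same test). That call depended on the scaling: with DESeq2 size factors, plain totals or counts that ignore strand, Mir92-1 was called lower, with adjusted p-values from 1.90e-05 to 0.0299. Of the relatives tested, Mir20b (log2 ratio 1.17) and Mir32 (0.84) were higher, and Mir106a (-0.03) and Mir92-2 (-0.03) did not pass.

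**Figure D3:**
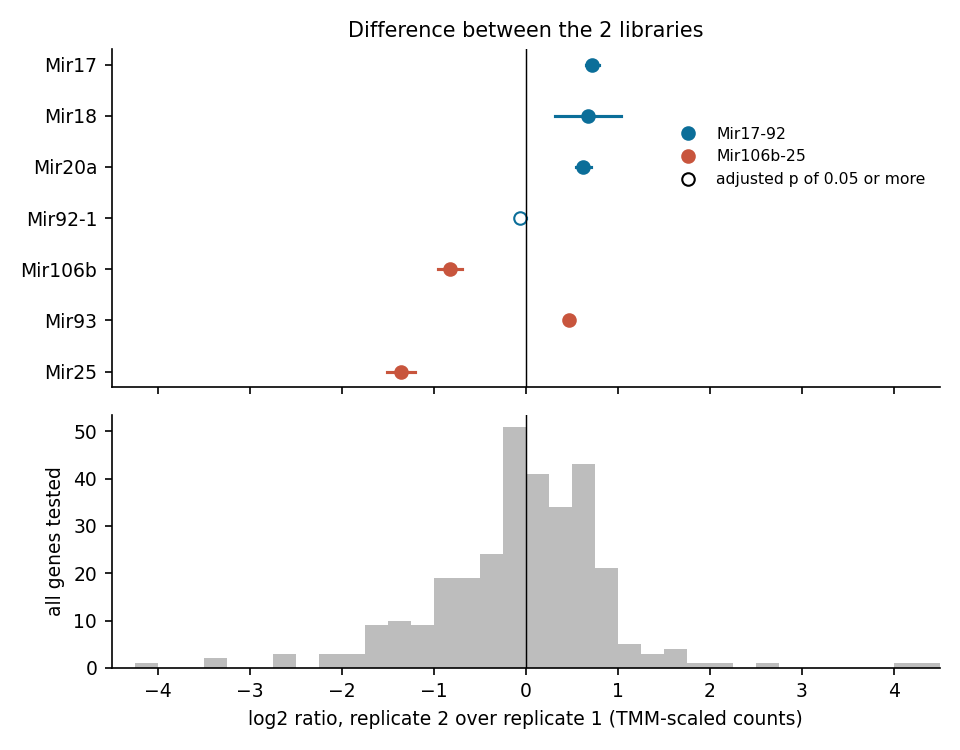
Log2 ratio of replicate 2 over replicate 1 (TMM-scaled counts) for the 7 tested members with exact 95% intervals (top), and its distribution over the 309 genes tested (bottom, number of genes). Mir17, Mir18, Mir20a and Mir93 lie right of 0, Mir106b and Mir25 left of it, and the open circle of Mir92-1 marks an adjusted p of 0.0700.

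The spread between the replicates, estimated from the same libraries, depended on the estimate used. The median absolute log2 ratio was 0.68 over the 7 tested members and 0.51 over all genes tested, or 1.60-fold and 1.43-fold. The median log2 ratio was 0.47 over the members and 0.01 over all genes tested. With the common biological coefficient of variation that edgeR estimated from these libraries, 0.414, the log2 ratio of a pair of replicates has an SD of 0.85. Of the members, Mir25 alone lay beyond that value, as did 25.9% of the genes tested. With DESeq2's median gene-wise estimate, 0.209, the SD was 0.43 and 6 of the 7 tested members lay beyond it, beside 57.6% of the genes tested. By the size of the log2 ratio, Mir25 ranked 37 of 309, Mir106b 85 and Mir92-1 281.

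**Figure D4:**
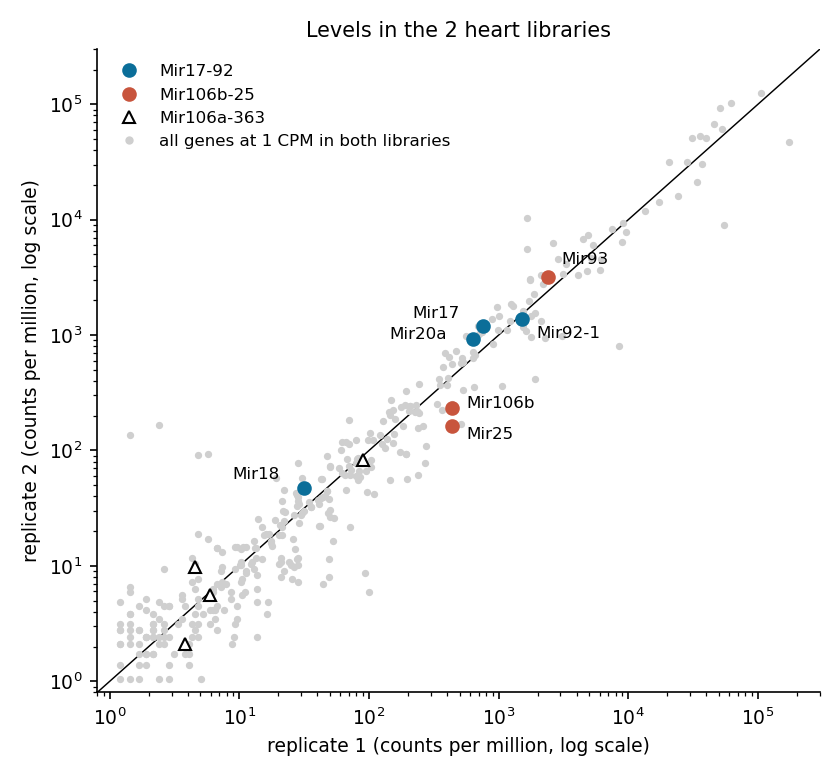
Level in replicate 2 against replicate 1 (CPM, log scales) for the 380 genes at 1 CPM in both libraries, with the 7 members above that level named, the Mir106a-363 genes as triangles, and a line of equal levels. Mir25 (434 and 162 CPM in replicates 1 and 2) lies farthest from the line among the members.

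Ratios between genes of a cluster need no scaling between libraries. Mir18 and Mir20a kept their proportion to Mir17: Mir18 over Mir17 was 0.0410 in replicate 1 and 0.0396 in replicate 2, and Mir20a over Mir17 was 0.824 (exact 95% interval 0.782 to 0.868) and 0.769 (0.731 to 0.809). Mir92-1 over Mir17 was 1.97 (1.89 to 2.06) in the first library and 1.15 (1.09 to 1.20) in the second. The counted reads of the last and the first hairpin thus did not keep their proportion. Reads of mature miR-92a alone are missing from the Mir92-1 count, so this ratio does not cover all reads of that hairpin. In the other cluster the proportions moved more. Mir25 over Mir93 was 0.179 (0.170 to 0.188) in the first library and 0.0507 (0.0461 to 0.0557) in the second. Mir106b over Mir93 was 0.179 (0.171 to 0.189) and 0.0734 (0.0678 to 0.0794). Mir93 made up 73.6% of its cluster in replicate 1 and 89.0% in replicate 2.

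Markers of other cells also differed between the libraries. The leukocyte microRNAs (Mir142, Mir150, Mir155, Mir223, Mir342) summed to 5998 CPM in replicate 1 and 8349 CPM in replicate 2. All 5 were called higher in replicate 2, beside 35.3% of all genes tested. The cardiomyocyte list summed to 6544 and 4789 CPM, the fibroblast list to 5305 and 3732 CPM and the erythroid list to 1747 and 1328 CPM. These sums, which lack reads that fit several loci, were lower in replicate 2. Of the tested genes on these lists, 3 of 4 cardiomyocyte, 1 of 3 fibroblast and 2 of 3 erythroid genes were called lower. Over all genes tested that share was 28.2%. On the same lists, 1 fibroblast and 1 erythroid gene were called higher. The endothelial list summed to 176135 and 49984 CPM, almost all of it Mir126a, while its other genes, Mir221 and Mir222, were called higher in replicate 2. The smooth muscle list summed to 32911 and 56334 CPM, with both genes called higher. Every list had genes at 1 CPM in both libraries, and of the 25 listed genes only Mir199a-1 of the fibroblast list was at 0 in both. Reads that fit several loci are counted at no gene, so that 0 does not show that its microRNA was absent. The part of these cells in the members' differences was not tested.

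Unequal levels within a cluster were common among reads placed at a single locus. There were 14 clusters with at least 3 genes at 1 CPM in both libraries, joining genes of a strand with gaps up to 10 kb. The highest gene exceeded the lowest by 36.6-fold in Mir17-92 (Mir92-1 over Mir18) and by 9.42-fold in Mir106b-25 (Mir93 over Mir25), against a median of 42.1-fold over the 14 clusters. By this range Mir17-92 ranked 8 and Mir106b-25 ranked 11 of 14. The value of Mir106b-25 depended on the library, with 5.59-fold in replicate 1 alone and 19.7-fold in replicate 2 alone. The range of Mir17-92 leaves out Mir19a and Mir19b-1, which did not reach 1 CPM. Its highest gene, Mir92-1, lacks reads of mature miR-92a alone. Reads that fit several loci are counted in no cluster, and this loss need not be equal among clusters. The mature sequences shown for Mir106b-25 occurred in no other RefSeq hairpin. The part of such reads in the ranges, the median and the ranks was not tested. The log2 ratios of the tested genes of a cluster spanned 0.78 in Mir17-92 and 1.82 in Mir106b-25, against a median of 1.25 over the 12 clusters with at least 3 tested genes. By that span Mir106b-25 ranked 4 and Mir17-92 ranked 10 of 12.

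**Figure D5:**
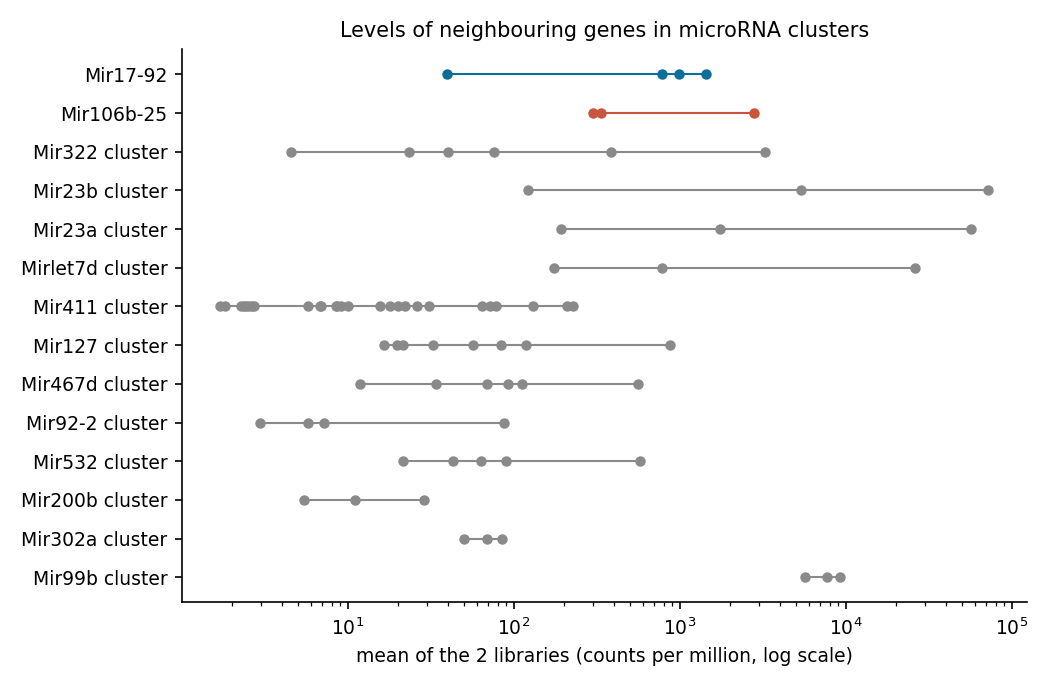
Mean level over the 2 libraries (CPM, log scale) of each gene in the 14 clusters with at least 3 genes at 1 CPM in both libraries; a line joins the lowest and the highest gene, and other clusters are named by their highest gene. Over reads placed at a single locus, Mir17-92 spans 36.6-fold and Mir106b-25 spans 9.42-fold.

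The genes nearest to the leading members were found by distance in log2(CPM + 0.5) over the 2 libraries. With only 2 points, nearness says that a gene has a like level and a like ratio between the libraries. Nearest to Mir92-1 were Mir185 (1551 and 1187 CPM in replicates 1 and 2), Mir10a (1550 and 1627 CPM) and Mir130a (1767 and 1477 CPM), at distances of 0.22 to 0.25. Nearest to Mir93 were Mir674 (2130 and 3326 CPM), Mir21a (2199 and 2749 CPM) and Mir322 (3133 and 3397 CPM), at distances of 0.20 to 0.38.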

How the data were processed

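Each library has a deposited table of raw counts of reads on microRNA genes. The aligner is not given in the sources used here; per the deposited readme the build is mm10 and the annotation is release M21. Neither totals nor tests include the 4 opening rows, which the deposited tables name for unmapped reads, reads at several loci, reads outside genes and ambiguous reads. These rows held 19.0%, 42.4%, 6.94% and 0% of 13233055 reads in replicate 1 and 17.5%, 43.2%, 7.11% and 0% of 8930289 reads in replicate 2.

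The column of the gene's strand was used, and over the 9 members the opposite strand held 1 count. All 2202 identifiers matched M21. The libraries were not duplicates (chi-square per degree of freedom 830.1 over genes). Genes kept by edgeR's filterByExpr (minimum count 10, TMM scaling, edgeR 4.0.16 in R 4.3.3) were tested as stated in the report. Python 3.11.15, scipy 1.17.1 and DESeq2 1.42.0 served for the rest. The test was run on simulated counts with counting error only. They held no spread between replicates, so the check does not cover the spread seen in these libraries. Sequences are RefSeq's, of build GRCm38.p6.

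The rule for the members uses symbols alone, but the clusters, relatives and marker lists were picked with earlier results of these data known, so no p is given for sums over members. The named genes are the members, the listed relatives, the markers, and the 3 genes nearest in level to the highest member of each cluster. Mir92b and Mir6383 were named after the seed search. Alternatives covered the strand column, scaling, filter, denominator, cluster gap, detection level and leaving out a replicate.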

Additional observations from a re-analysis of the deposited data

How the results depend on the processing

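Shares moved with the denominator by construction. With counts that ignore strand, whose gene total is smaller, the members held 0.893%, Mir17-92 0.433% and Mir106b-25 0.461%. Of all reads they held 0.213%, 0.104% and 0.110%. Without Mir19b-1 and Mir92-1 the ratio of Mir17-92 to Mir106b-25 was 0.520. Leaving out each replicate, the highest level within Mir106b-25 exceeded the lowest by 5.59-fold to 19.7-fold. The coefficient of variation was 0.209 with DESeq2. That value is a median of gene-wise estimates and edgeR's is a common estimate, so they are different summaries. What else set them apart was not tested. The number of members that differed between the libraries was 6, and 7 with DESeq2 size factors, plain totals or counts that ignore strand, where Mir92-1 was added. With at least 1 count in either library it was 6 of 9 tested, beside 30.2% of 709 genes, and with at least 10 counts in both it was 6. No log2 ratio of a member or relative changed sign under another scaling or strand column. Leaving out a replicate leaves no comparison of libraries, so that alternative gives no value there. At this depth a gene under about 1 CPM cannot be told from 0, and reads at several loci set no upper limit for miR-19b or miR-92a.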
